A study of Bos taurus with 60 samples.

Results

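The liver small RNA of Charolais steers with low residual feed intake was compared with that of Charolais steers with high residual feed intake. Residual feed intake (RFI) is the amount an animal eats minus the amount expected from its size and growth, so a low-RFI steer eats less than predicted and counts as feed efficient. The steers were those whose labels name the breed Charolais and an RFI group, 6 low-RFI and 6 high-RFI animals, which is 12 of the 20 Charolais steers and 12 of the 60 steers of the series. The other 8 Charolais steers carry no RFI group and form neither side of a comparison, but they enter the fits that use all 20 steers. The paper states that all 20 were taken from the highest and lowest RFI values of the breed. The remaining steers are 20 Angus and 20 of the Kinsella Composite (KC), a crossbred beef population. All Charolais steers were castrated males raised and managed alike at a single ranch, finished on barley grain, barley silage and rumensin pellets, and sampled from the right liver lobe at slaughter, with 1 small RNA library per steer. RFI is a property of the whole animal, so the groups differ by a measured trait and not by a treatment or an allele.

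The steers of both groups are related in ways that the groups share unequally. The labels name a sire for each steer, given here as letters A to E. Of the low-RFI steers, 1 descends from sire A, 1 from B, 2 from C and 2 from D, and of the high-RFI steers 4 descend from A and 2 from E. Sire A is therefore the only sire with steers in both groups, and apart from that family sire and RFI group cannot be told apart. Totals ran from 2237959 to 4984487 counts in low-RFI libraries (median 4068319) and from 3282068 to 5670714 in high-RFI libraries (median 5113839), and they did not differ beyond their spread (exact two-sided permutation test p = 0.152, adjusted p = 0.390 over 14 tests). Levels are in CPM, the count of a miRNA scaled to library size, after TMM correction for library composition. A floor of 3 counts corresponds to 0.529 to 1.34 CPM across the libraries and covers counting error only. Spearman correlations between libraries were 0.962 to 0.979 and no libraries were identical. Beyond the steer identities the labels do not say how the samples were replicated, so p-values measure the spread between these animals. The paper states that both groups were picked for extreme RFI and for consistent miRNA expression, judged against the breed's other samples. The spread within groups may therefore be narrower than in unselected steers, and p-values may be too small. The paper also describes sequencing in pools on flow cells, but the labels name neither for any steer.

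Of the 12 libraries, that of low-RFI steer 1 stood apart most often. It had the lowest total and lay far from the other 5 low-RFI steers in 24 of 373 tested miRNAs (6.43%), 13 above and 11 below. By chance, any of the 6 steers of a group meets this rule in about 1 in 20 groups, and a given steer in fewer. For the other 11 steers the count of such miRNAs ran from 0 to 7. This steer is also the only low-RFI offspring of sire A, so results that rest on it are given with and without it.

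MicroRNAs (miRNAs) are short RNAs that guide the silencing of messenger RNAs, mostly through pairing of their seed, the second to the eighth base, with sites in the target. miR-122 is the classic hepatocyte miRNA, with known roles in cholesterol and fatty acid metabolism. miR-192, miR-194 and miR-215 are abundant in liver and gut epithelium. miR-192 and miR-215 carry the same seed. In the cattle annotation of RefSeq (assembly ARS-UCD2.0) miR-192 and miR-215 each have a copy of miR-194 within 10 kb, so the mature miR-194 counted here comes from 2 precursors.

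The mature sequences below are those of the hepatocyte miRNAs and of the 9 miRNAs that passed both thresholds described further on, from the study's table of mature miRNAs. They are shown because the counting rests on these letters and because members of a family differ by few of them. Capitals mark the seed.
bta-miR-192: cUGACCUAugaauugacagccag
bta-miR-215: aUGACCUAugaauugacagaca
bta-miR-194: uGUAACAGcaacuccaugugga
bta-miR-122: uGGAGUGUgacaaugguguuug
bta-miR-885: uCCAUUACacuacccugccucu
bta-miR-365-5p: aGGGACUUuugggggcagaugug
bta-miR-133a: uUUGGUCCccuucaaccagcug
bta-miR-2415-3p: cCAGGCCUgcuggaccgacgc
bta-miR-362-3p: aACACACCuauucaaggauuc
bta-miR-485: aGAGGCUGgccgugaugaauucg
bta-miR-2285i: aAAACCGGaacgaacuuuuugg
bta-miR-2285u: gAAAAACCcgaacgaacuuu
bta-miR-2346: aCUGAUGUgaaggugguuuggc
bta-miR-1842: uGGCUCUGugaggucggcuca

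The hepatocyte miRNAs did not move in the same direction. miR-192, miR-194 and miR-215 had lower mean levels in low-RFI than in high-RFI liver, while miR-122 and miR-885 had higher ones, and each of these differences was smaller than 1.5-fold. No difference passed an adjusted p-value, so each is a trend within the spread of 373 tests.

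miR-192, the most abundant miRNA of these livers, ranged from 196700 to 253200 CPM in low-RFI steers with a median of 231000, and from 218600 to 290800 CPM in high-RFI steers with a median of 263800. The groups overlapped, and no low-RFI steer exceeded the high-RFI median. The means were 226200 ± 21500 and 259900 ± 24780 CPM (SD, n = 6 each), which gave a log2 fold change, low-RFI over high-RFI, of -0.20 (standard error 0.08, exact permutation p = 0.0390, edgeR quasi-likelihood adjusted p = 0.726). Its share of all counts was 23.1% ± 0.736 in low-RFI and 25.4% ± 2.54 in high-RFI steers, and the high-RFI steers varied more (exact permutation p = 0.0498, adjusted p = 0.311 over 14 tests). The low-RFI steer with the lowest level was steer 1, and without it the log2 fold change of miR-192 was -0.14 and the unadjusted edgeR p-value, under 0.05 with all 12 steers, no longer was. It stayed under 0.05 in 6 of 12 fits with a steer left out and in 8 of 15 other settings, the likelihood ratio form and sire as a block in 20 steers being among those where it did not.

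miR-194 ranged from 1715 to 1975 CPM in low-RFI steers (median 1774) and from 1921 to 2494 CPM in high-RFI steers (median 2040). Every low-RFI steer was below the high-RFI median, and the ranges met only between 1921 and 1975 CPM. The log2 fold change was -0.24 (standard error 0.10, exact permutation p = 0.0108, edgeR adjusted p = 0.726), and it was -0.20 without low-RFI steer 1, where the unadjusted edgeR p-value was above 0.05. miR-215, which shares the seed of miR-192 at a far lower level, ranged from 8345 to 10670 CPM in low-RFI and from 8607 to 11280 CPM in high-RFI steers. High-RFI steer 2 was the lowest of its group for both miR-192 and miR-215 and the highest for miR-194. miR-215 had a log2 fold change of only -0.16 (standard error 0.09, exact permutation p = 0.0671). miR-194b and miR-194b-3p, 2 further listed relatives, were too low to be tested.

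miR-122 showed the opposite order. It ranged from 7280 to 12370 CPM in low-RFI steers (median 8726) and from 6000 to 8396 CPM in high-RFI steers (median 7557). The steers at 12370 and 10700 CPM, low-RFI steers 1 and 2, were well above the other 10, which lay together between 6000 and 9264 CPM. The means were 9300 ± 1919 and 7453 ± 920 CPM (SD, n = 6 each), and the log2 fold change was 0.32 (standard error 0.13, exact permutation p = 0.0563, edgeR adjusted p = 0.726), the largest in size of the 20 most abundant miRNAs. Without low-RFI steer 1, as without steer 2, its unadjusted edgeR p-value was no longer under 0.05, and the log2 fold change without steer 1 was 0.26. As a share of counts, miR-122 took 0.957% ± 0.243 in low-RFI and 0.729% ± 0.0891 in high-RFI libraries (SD, n = 6 each, exact permutation p = 0.0303, adjusted p = 0.311 over 14 tests).

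miR-885, the other hepatocyte marker that was tested, lay between 26.1 and 50.6 CPM in low-RFI and between 19.4 and 45.7 CPM in high-RFI steers. The groups overlapped over most of this range, and the log2 fold change was 0.30 (standard error 0.20, exact permutation p = 0.204). Low-RFI steer 1 had the lowest miR-885 of its group and the highest miR-122. Leaving it out raised the log2 fold change of miR-885 to 0.41, with an unadjusted edgeR p-value just under 0.05. With sire as a block the direction turned, to -0.25 in 12 steers, and the value was 0.09 in 20 steers.

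The opposed directions of miR-192 and miR-122 can be read within a library, where scaling plays no part. The ratio of miR-192 to miR-122 was 15.9, 21.8, 28.2, 26.0, 30.9 and 28.6 in low-RFI steers 1 to 6. In high-RFI steers 1 to 6 it was 32.8, 31.8, 30.8, 39.4, 32.1 and 44.9. Low-RFI steer 5, at 30.9, was above high-RFI steer 3, at 30.8, and every other low-RFI steer was below every high-RFI steer. The ratio is given as a description because both members were chosen for their abundance and their order was already known. In the family of sire A the low-RFI steer had 12370 CPM of miR-122 against 6866 to 8396 CPM in its 4 high-RFI relatives. For miR-192 it had 196700 CPM against 218600 to 290800 CPM. These levels, unlike the ratio, depend on scaling, and low-RFI steer 1 had the highest TMM factor, 1.13. As a share of counts miR-192 was at 22.2% to 23.9% in low-RFI steers, above the 21.2% of high-RFI steer 2, also of sire A.

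**Figure D1:**
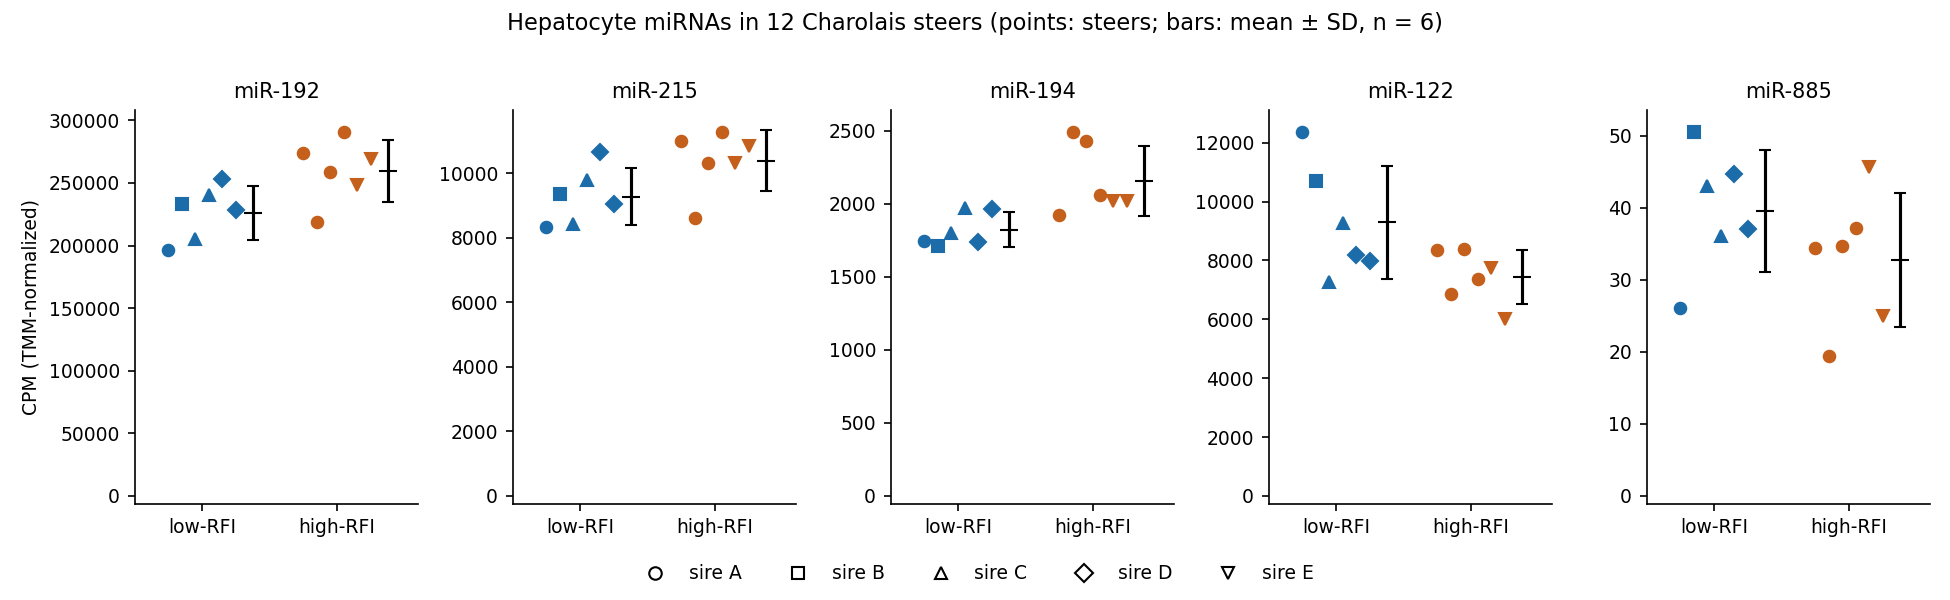
Normalized level (CPM, linear axes from 0) of 5 hepatocyte miRNAs in each of the 12 Charolais steers, with symbols for the sires and bars for the mean ± SD of the 6 steers of a group. Low-RFI points lie lower for miR-192 and miR-194 and reach higher for miR-122, where steers 1 and 2 are at 12370 and 10700 CPM, and the groups overlap in each panel.

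Across the whole table, differences between low-RFI and high-RFI liver were small and about as frequent as chance gives. Of 1030 known miRNAs in the files, 373 reached 1 CPM in 6 or more of these steers and were tested, and 318 had no count in any of the 12. At an unadjusted edgeR p-value under 0.05 there were 20 miRNAs (5.36%), 8 higher (2.14%) and 12 lower (3.22%) in low-RFI steers, where 18.7 would be the average with no difference. A fold change above 1.5 in addition left 9 miRNAs (2.41%), 3 higher (0.804%) and 6 lower (1.61%), which are referred to as called. No miRNA passed an adjusted p of 0.05 by the edgeR quasi-likelihood test (smallest 0.726), its likelihood ratio form (smallest 0.650) or DESeq2 (smallest 0.782). The exact permutation test of each miRNA gave 14 at p under 0.05 (3.75%). Counts were also simulated for these 12 steers, with 200 of 373 miRNAs changed. The edgeR test then found 87% of 2-fold and 52% of 1.5-fold changes at an adjusted p under 0.05. With so many changed, that threshold is easier to pass than with few, and sires were not simulated. These shares thus do not tell how often a few true changes would be found.

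The size of a difference followed abundance. Among the 50 most abundant miRNAs the median absolute log2 fold change was 0.10 with a median standard error of 0.11. Among the 50 least abundant it was 0.25 with a standard error of 0.39. The median over all 373 was 0.00, and the 10th and 90th percentiles were -0.29 and 0.32. All 9 called miRNAs averaged below 50 CPM, and 6 of them had 3 or fewer counts in at least 1 steer, which held for 71 of the 373.

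**Figure D2:**
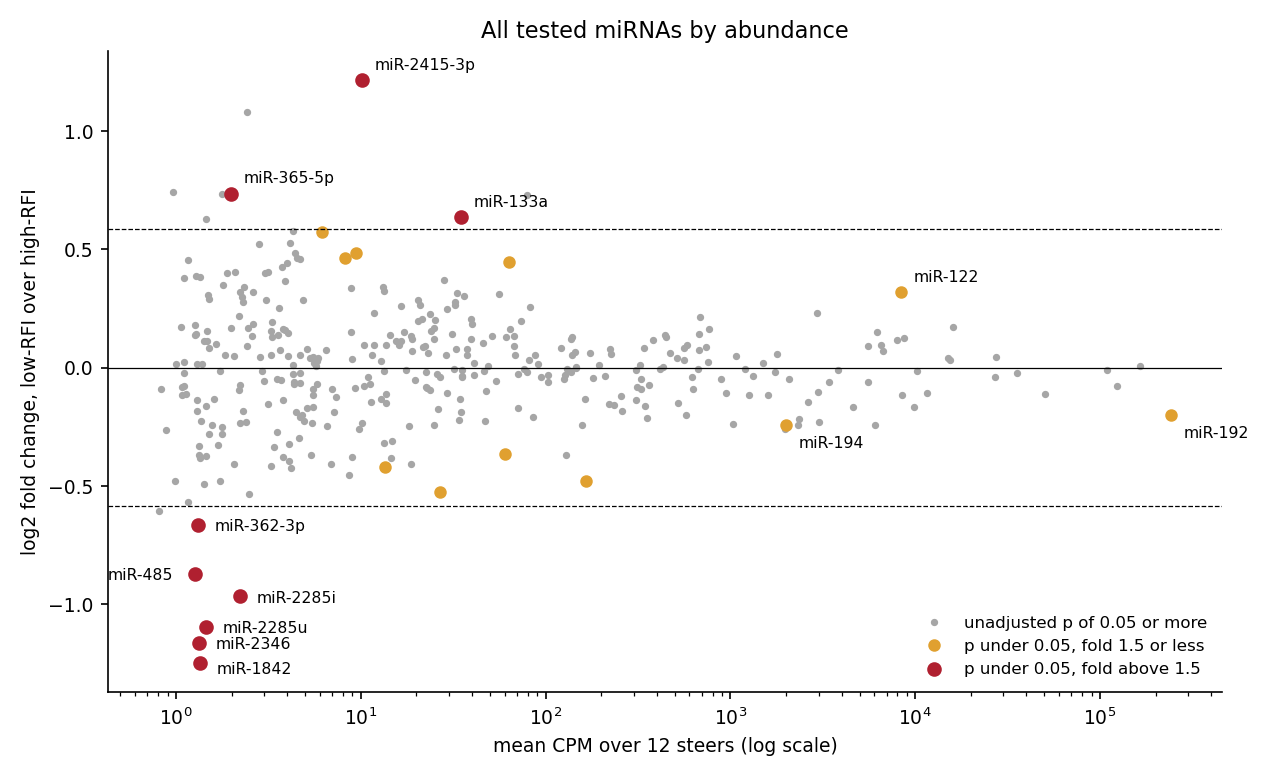
Log2 fold change, low-RFI over high-RFI, against mean CPM over the 12 steers (log axis) for the 373 tested miRNAs, with dashed lines at a fold change of 1.5. The 9 called miRNAs (red) lie at low abundance, and miR-122, miR-192 and miR-194 lie between the dashed lines with log2 fold changes of 0.32, -0.20 and -0.24.

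Of the 3 called miRNAs with higher levels in low-RFI steers, miR-365-5p was the only 1 of all 373 (0.268%) whose groups did not overlap. It was at 2.77, 2.82, 2.23, 1.87, 3.20 and 2.15 CPM in low-RFI steers 1 to 6. In high-RFI steers 1 to 6 it was at 1.29, 1.13, 1.62, 1.40, 1.74 and 1.59 CPM. All steers of either group were thus within a few CPM of the floor, and each had more than 3 counts. The log2 fold change was 0.73 (standard error 0.24, edgeR adjusted p = 0.726), and the exact permutation p = 0.00216 is the smallest that relabeling 12 steers can give (adjusted p = 0.807). It was called with each of the 12 steers left out in turn, at log2 fold changes of 0.66 to 0.82. miR-365-5p is the minor arm of its hairpin. The major arm, miR-365-3p, at 194 CPM in both groups, differed by 0.01 on the log2 scale (standard error 0.22), and miR-193b, which lies beside it, by 0.14 (standard error 0.17).

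miR-133a, a miRNA of skeletal and heart muscle, ranged from 24.6 to 57.0 CPM in low-RFI steers (median 45.3) and from 18.5 to 33.9 CPM in high-RFI steers (median 30.1). The 4 low-RFI steers of sires C and D, at 42.7 to 57.0 CPM, were above every high-RFI steer, while the low-RFI steers of sires A and B, at 26.9 and 24.6 CPM, were below the high-RFI median. The log2 fold change was 0.64 (standard error 0.22, edgeR adjusted p = 0.726, exact permutation p = 0.0519). With sire as a block, which compares the groups within sire A alone, it was -0.04, and the low-RFI steer of sire A lay within the 18.5 to 33.0 CPM of its 4 high-RFI relatives. The mature sequence lies within 1 mismatch of miR-133b, so reads of both could be exchanged. miR-1, a neighbour of miR-133a and also a muscle miRNA, averaged 2.23 ± 1.18 CPM in the low-RFI group against 1.31 ± 0.741 CPM (SD, n = 6 each), which gave a log2 fold change of 0.73 (exact permutation p = 0.113, standard error 0.40), while the third tested muscle miRNA, miR-499, was at -0.57. The summed level of 7 muscle miRNAs was 28.8 to 63.4 CPM in the low-RFI group against 22.3 to 37.6 CPM, most of it miR-133a, with miR-208a at 0 in all 12 steers and miR-206 at 0 in all 6 low-RFI steers.

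miR-2415-3p, a miRNA annotated in cattle, was at 27.2 and 27.0 CPM in low-RFI steers 3 and 4, both sons of sire C, and at 4.03 to 14.2 CPM in the other low-RFI steers. High-RFI steers were at 2.52 to 14.0 CPM. Apart from the sire C offspring the groups covered the same range. The log2 fold change was 1.22 (standard error 0.52, edgeR adjusted p = 0.786, exact permutation p = 0.160), and the miRNA was called in 6 of 12 fits with a steer left out. It was lost without low-RFI steer 3 or 4 and without high-RFI steer 2, 4, 5 or 6.

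The 6 called miRNAs with lower levels in low-RFI steers averaged between 1.27 and 2.23 CPM over the 12 steers, close to the floor. miR-1842 was at 0.791, 0.201, 0.223, 2.08, 0.00 and 1.34 CPM in low-RFI steers 1 to 6, and at 1.41 to 2.64 CPM in high-RFI steers with a median of 1.88. It had at most 3 counts in 4 low-RFI steers, while steer 4 was above the high-RFI median. Its log2 fold change was -1.25 (standard error 0.47, exact permutation p = 0.0217, edgeR adjusted p = 0.726) and ranged from -1.97 to -1.01 with single steers left out, each time called, the lowest value being that without low-RFI steer 4.

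miR-2346 lay at 0.201 to 2.15 CPM in low-RFI steers (median 0.601) and 0.968 to 3.04 CPM in high-RFI steers (median 1.66). Only low-RFI steer 6 was above the high-RFI median, and 5 animals of that group had at most 3 counts. On the log2 scale the groups differed by -1.16 (standard error 0.44, exact permutation p = 0.0346, edgeR adjusted p = 0.726). miR-362-3p, of the X-linked cluster with miR-500, miR-502 and miR-660, was at 0.415 to 1.599 CPM against 1.32 to 2.25 CPM, a log2 fold change of -0.66 (exact permutation p = 0.0281, edgeR adjusted p = 0.857, standard error 0.32). It was called in only 3 of 12 fits with a steer left out, and the other arm of its hairpin, miR-362-5p, was at 0.19 on the same scale (standard error 0.29). miR-485, of the imprinted DLK1-DIO3 cluster, was at 0.266 to 1.34 against 0.754 to 2.999 CPM, a log2 fold change of -0.87 (exact permutation p = 0.152, edgeR adjusted p = 0.857, standard error 0.41). High-RFI steers 3 and 6, at 2.64 and 2.999 CPM, were above all others, the remaining 4 lay within the low-RFI range, and miR-485 was called in 6 of 12 fits with a steer left out and was at -0.52 without high-RFI steer 6.

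The remaining called miRNAs belong to miR-2285, a large ruminant family whose members differ by few bases, as the sequences of miR-2285i and miR-2285u above show. miR-2285u was at 0.00, 1.41, 1.56, 1.45, 0.533 and 0.268 CPM in low-RFI steers 1 to 6 and at 1.29, 3.20, 1.42, 1.40, 1.94 and 2.999 CPM in high-RFI steers 1 to 6. No low-RFI steer reached the high-RFI median, and the log2 fold change was -1.09 (standard error 0.43, exact permutation p = 0.0411, edgeR adjusted p = 0.726). miR-2285i was at 0.791 to 2.15 CPM in the low-RFI group against 1.058 to 5.46 CPM, at a log2 fold change of -0.97 (exact permutation p = 0.0736, edgeR adjusted p = 0.758, standard error 0.40). The 4 high-RFI steers of sire A, at 2.57 to 5.46 CPM, exceeded the whole low-RFI group, and the 2 of sire E, at 1.36 and 1.058 CPM, were among them. Both values are uncertain, since each sequence lies within 1 mismatch of 6 other mature miRNAs. Of 117 listed miR-2285 members 41 were tested, 3 had p under 0.05, each lower in low-RFI steers (7.32%, against 5.36% of all tested miRNAs in either direction), 26 had a log2 fold change below 0 and the median was -0.09. Over all tested miRNAs, 187 of 373 were below 0. The related miR-2284 family had 10 tested members, a median of 0.09 and none at p under 0.05.

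**Figure D3:**
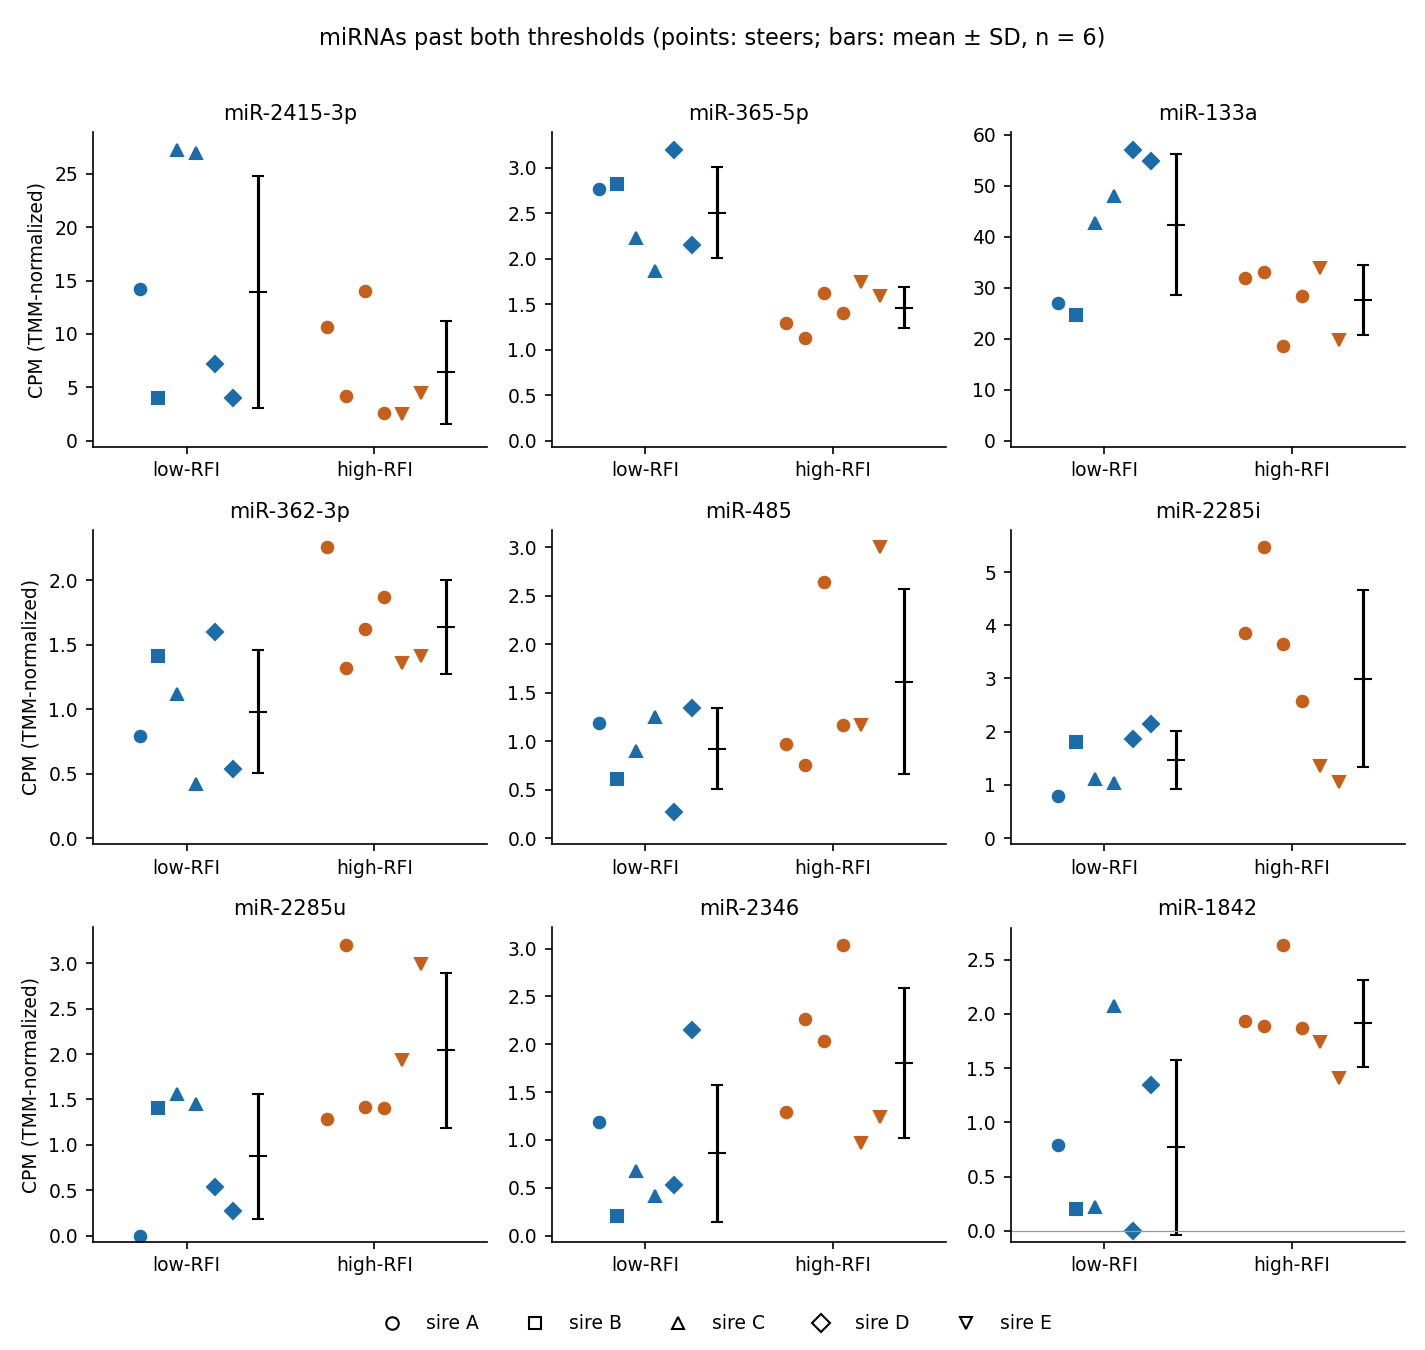
Normalized level (CPM, linear axes) of the 9 called miRNAs in each of the 12 Charolais steers, with symbols for sires and bars for the mean ± SD of 6 steers. The groups are separate only for miR-365-5p (lowest low-RFI steer 1.87, highest high-RFI steer 1.74 CPM), the sons of sire C reach 27.2 CPM of miR-2415-3p, and miR-1842 and miR-2285u include steers at 0.

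Many of these calls changed with the steers and the fit used. Without low-RFI steer 1, 11 of the 20 miRNAs kept p under 0.05, all 20 kept their sign and 8 miRNAs were called, 6 of them the same. With sire as a block 6 of the 20 kept p under 0.05 in the 12 steers, where 18 kept their sign, and 6 in the 20 steers, where 20 did. miR-194, miR-450a and miR-495 lost it in both of these fits. So did the called miR-133a, miR-2346, miR-2415-3p, miR-362-3p and miR-485, as well as miR-2484 and miR-2285ba. The block in 12 steers called 42 miRNAs, of which 2 were among the 9, miR-2285i and miR-2285u, at log2 fold changes of -2.29 and -6.10. The 12-steer values of miR-2285i and miR-2285u rest on low-RFI steer 1, which had 2 and 0 counts of them. With sire as a block in 20 steers neither was called, and of the 9 miR-1842 and miR-365-5p were the ones still called. Thinning all libraries to equal depth left 1 of the 9, miR-1842, untested and gave no call for miR-133a, miR-365-5p, miR-2346 and miR-485. DESeq2 did not call miR-2415-3p, miR-362-3p or miR-485.

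The other 8 miRNAs with p under 0.05 and a smaller fold change than the threshold, besides the 3 hepatocyte miRNAs, came from unrelated families. miR-450a, of an X-linked cluster with miR-424 and miR-450b, ranged from 18.1 to 26.2 CPM in low-RFI steers (median 21.5) and from 20.3 to 41.2 CPM in high-RFI steers (median 31.5). No low-RFI steer was above the high-RFI median, and high-RFI steers 2, 3, 5 and 6 exceeded the whole low-RFI group. The difference was -0.53 on the log2 scale (standard error 0.19, exact permutation p = 0.0368, edgeR adjusted p = 0.726). The 4 tested members of the cluster were all below 0 (median -0.34), with miR-450b at -0.37 (exact permutation p = 0.134) and miR-424-5p at -0.32 (exact permutation p = 0.0628). They lie within 10 kb of each other and are not independent.

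miR-141 and the other miR-200 members mark epithelium, in liver the bile duct cells. miR-141 ranged from 89.0 to 211 CPM in low-RFI steers (median 142) and from 122.3 to 262 CPM in high-RFI steers (median 181). The overlap was wide, with 1 low-RFI steer above the high-RFI median. miR-141 differed by -0.48 on the log2 scale (standard error 0.21, exact permutation p = 0.0801, edgeR adjusted p = 0.786), and by -0.37 without low-RFI steer 1, where the unadjusted edgeR p-value was above 0.05. Its cluster partner miR-200c was at -0.45 (exact permutation p = 0.136) and miR-429 at -0.31 (exact permutation p = 0.0693), while miR-200a, which is transcribed with miR-429, was at 0.02. Of 6 biliary miRNAs 5 were below 0 (median -0.23).

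miR-199b, of a family made by stellate cells and fibroblasts, ranged from 38.8 to 66.3 CPM in low-RFI and from 46.7 to 83.3 CPM in high-RFI steers. The groups overlapped, with no low-RFI steer above the high-RFI median, and the log2 fold change was -0.36 (standard error 0.16, exact permutation p = 0.0649, edgeR adjusted p = 0.786). All 5 tested miRNAs of that group were below 0, with a median of -0.12, and miR-199a-3p and miR-214 were at -0.12 and -0.04. miR-2285ba, another member of the ruminant family above, was at -0.42 (standard error 0.19, exact permutation p = 0.0541).

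The 4 with higher means in low-RFI steers were miR-2484, miR-495, miR-455-5p and miR-425-3p. miR-425-3p ranged from 7.48 to 13.4 CPM in the low-RFI group and from 6.08 to 8.37 CPM in the high-RFI group. Each of the 6 low-RFI animals exceeded the high-RFI median of 6.44 CPM, and the log2 fold change was 0.46 (standard error 0.19, edgeR adjusted p = 0.726, exact permutation p = 0.0130). An unadjusted edgeR p-value under 0.05 held in 15 of 15 alternative settings and in 11 of 12 fits with a steer left out, the exception being low-RFI steer 5. With sire as a block in 12 and in 20 steers its log2 fold change was 1.02. The 12-steer value rests on low-RFI steer 1, the highest of all steers at 13.4 CPM. Without that steer and without the block the log2 fold change was 0.41. The major arm of the same hairpin, miR-425-5p, and the neighbouring miR-191, an abundant miRNA at 7907 to 14220 CPM, were at 0.05 and -0.10. miR-495, of the DLK1-DIO3 cluster, was at 8.31 to 13.4 against 6.08 to 10.1 CPM (log2 fold change 0.48, standard error 0.19, exact permutation p = 0.0238). miR-455-5p, whose hairpin lies in the cartilage collagen gene COL27A1, was at 49.97 to 87.9 against 35.3 to 64.9 CPM (log2 fold change 0.45, standard error 0.17, exact permutation p = 0.0455), and its other arm miR-455-3p was at 0.37. miR-2484 was at 3.56 CPM in low-RFI steer 1 and at 7.46 to 9.16 CPM in the other 5, against 4.06 to 6.29 CPM in high-RFI steers. Its log2 fold change of 0.57 (exact permutation p = 0.0606, standard error 0.21) became 0.70 without that steer and -0.55 with sire as a block in 12 steers.

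Where both arms of a hairpin were measured, they moved together only part of the time. Of 29 hairpins with both arms tested, 16 had log2 fold changes of the same sign, and the median absolute difference between arms was 0.20 on the log2 scale, with the widest at 0.86 for miR-362. Among the called miRNAs miR-365-5p and miR-362-3p are the minor arms of their hairpins.

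Most abundant families showed little difference. let-7 and miR-98, regulators of growth and differentiation that share a seed, had 9 of 9 tested members below 0, with a median log2 fold change of only -0.04 and a lowest of -0.11. Reads of let-7a-5p, let-7b, let-7c, let-7e and let-7f could be exchanged in the counting, as each has a near-identical relative. The miR-30 family, also of a shared seed, had 6 tested members with a median of 0.13, and its most abundant, miR-30a-5p, was at 108300 ± 22280 CPM in the low-RFI group against 108900 ± 11070 CPM (SD, n = 6 each). miR-148a, a hepatic regulator of lipid metabolism, was at 121100 ± 6869 and 127600 ± 8040 CPM (SD, n = 6 each), a difference of -0.08 on the log2 scale (standard error 0.07, exact permutation p = 0.139). miR-143, at 164700 ± 19730 and 163700 ± 19280 CPM (SD, n = 6 each), was at 0.01 (standard error 0.09).

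Among miRNAs that lie in genes of lipid and energy metabolism, the miR-33 pair lies within SREBF2 and SREBF1, the genes of the sterol-regulating transcription factors. miR-33a was at 4.83 to 7.52 CPM in low-RFI steers (median 5.81) and at 5.28 to 11.2 CPM in high-RFI steers (median 7.76). No low-RFI steer was above the high-RFI median, at a log2 fold change of -0.41 (exact permutation p = 0.0909, standard error 0.21), and miR-33b was at -0.13 (standard error 0.15). miR-103 and miR-107, which lie within pantothenate kinase genes, were at -0.02 and -0.09. miR-378, with a copy in PPARGC1B, the gene of a coactivator of mitochondrial genes, was at 0.09 (standard error 0.11), and the 4 tested miR-378 members were all above 0 with a median of 0.10. The 5 tested miR-193 and miR-365 miRNAs were also all above 0 (median 0.14), with miR-365-5p the only member at p under 0.05.

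The DLK1-DIO3 cluster, an imprinted region that expresses many miRNAs from the maternal chromosome, had 32 tested members of 56 in the files. Of these 1 was higher and 1 lower at p under 0.05 (6.25%, near the 5.36% of all tested miRNAs), 21 were above 0, against 186 of all 373, and the median was 0.09. The miR-17-92 cluster and its paralogues had 14 tested members with a median of -0.02 and none at p under 0.05. miR-21-5p, induced in injured and growing liver, was at 17070 ± 4406 CPM in the low-RFI group against 15140 ± 1548 CPM (SD, n = 6 each), a difference of 0.17 on the log2 scale (standard error 0.15, exact permutation p = 0.433). Low-RFI steers thus covered a wider range of miR-21-5p, from 11410 to 22670 CPM.

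**Figure D4:**
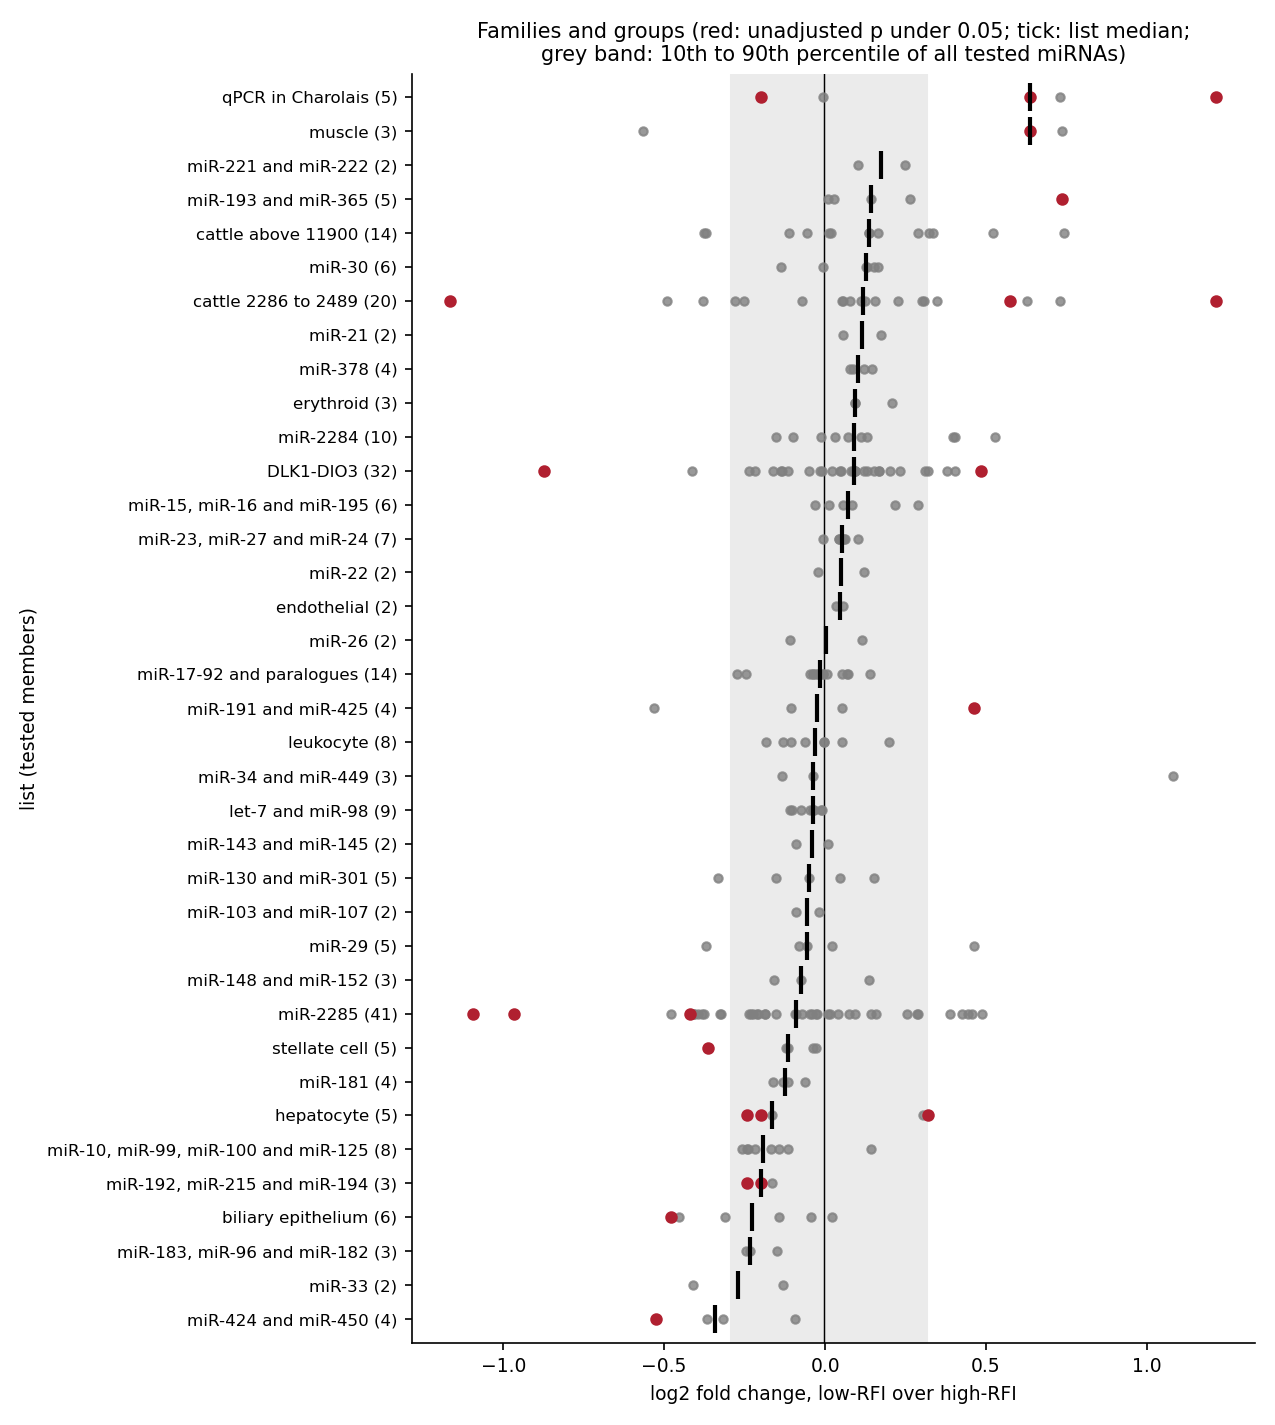
Log2 fold change, low-RFI over high-RFI, of every tested member of 37 families and groups (points; red at unadjusted p under 0.05) with the median of each (tick), ordered by median. The grey band spans the 10th to 90th percentile of all 373 tested miRNAs, -0.29 to 0.32, and the vertical line is their median. Most members lie within the band, the miR-424 and miR-450 group has the lowest median at -0.34 and the muscle and qPCR groups, which share miR-133a, have the highest at 0.64. Apart from its references, the qPCR group was chosen by the paper from differences in sequencing of these same steers.

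Several of these miRNAs were also chosen for qPCR in Charolais, with miR-192 and miR-93 as references. The paper chose miR-133a, miR-2415-3p and miR-2419-5p because they were differentially expressed in its sequencing of these steers. Their differences in the same counts are therefore not independent evidence. In the sequencing counts miR-133a and miR-2415-3p were called as described, and miR-2419-5p was at 20.1 to 212 CPM in low-RFI (median 88.7) and 28.3 to 91.8 CPM in high-RFI steers (median 59.8). The high-RFI range lay within the low-RFI range, and the log2 fold change was 0.73 (standard error 0.38, exact permutation p = 0.392). Low-RFI steer 4 had the 212 CPM, and without it the value was 0.34, while sire as a block gave 0.26 in 12 steers. Of the references, miR-93 differed by -0.01 on the log2 scale (standard error 0.10), at 366 to 463 CPM in the low-RFI group against 377 to 456 CPM, and miR-192 had -0.20, as given above.

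Summed levels of markers of other cell types overlapped between the groups, and their part in the results above was not tested. Leukocyte miRNAs summed to 3325 to 4103 CPM in the low-RFI group against 3374 to 4760 CPM, with 0 of 5 at p under 0.05. Erythroid miRNAs summed to 4679 to 11400 and 4941 to 11860 CPM, with 0 of 3. Endothelial miRNAs summed to 15710 to 19400 and 15480 to 18490 CPM, and 5 stellate or mesenchymal miRNAs to 135500 to 185000 and 143000 to 188600 CPM, with none at p under 0.05 in either list. That marker list does not hold miR-199b, which is lower at p under 0.05 in the stellate cell group above, where 1 of 5 passed and 5 of 5 were below 0. Biliary miRNAs, with miR-141 at p under 0.05, summed to 155 to 287 CPM in the low-RFI group against 184 to 348 CPM. In bulk liver, fewer cells of a type and less of a miRNA per cell cannot be told apart.

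Whether the Charolais differences were those of other breeds was asked in a fit of the 36 steers with an RFI group. The contrast of the Charolais effect with the mean effect of Angus and KC had p under 0.05 for 25 of 422 miRNAs (5.92%). None passed an adjusted p of 0.05 by the edgeR quasi-likelihood test (smallest 0.427) or the likelihood ratio form (smallest 0.256). These fits left out pairs of miRNA and precursor listed for KC alone. With all pairs the smallest adjusted p of the quasi-likelihood test was 0.1415. The smallest p was that of miR-450a, whose log2 fold change was -0.51 in Charolais, 0.11 in Angus and 0.39 in KC in this fit, a difference of -0.76 (standard error 0.21, edgeR adjusted p = 0.427). Its cluster partner miR-450b had the second smallest, with -0.36, 0.12 and 0.41 and a difference of -0.63 (standard error 0.20). In both cases low-RFI steers had the lower mean in Charolais and the higher mean in KC. The Angus values were smaller than their standard errors of 0.17 and 0.16.

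Of the 5 tested hepatocyte miRNAs, miR-194 and miR-122 were among the 10 smallest p-values of that contrast, miR-192 differed by -0.20 (standard error 0.10, edgeR adjusted p = 0.746), and miR-215 and miR-885 differed by -0.14 and 0.18 (edgeR adjusted p = 0.912 and 0.915). miR-194 was at -0.24 in Charolais, 0.08 in Angus and 0.09 in KC (difference -0.32, standard error 0.10, edgeR adjusted p = 0.427). miR-122 was at 0.32, -0.06 and -0.03 (difference 0.37, standard error 0.14, edgeR adjusted p = 0.615). For both, the Angus and KC values were near 0. miR-2285u differed by -1.95 (standard error 0.63, edgeR adjusted p = 0.427), being at -1.08 in Charolais, 1.504 in Angus and 0.23 in KC. miR-30d was at 0.16 in Charolais and at -0.07 and -0.06 in Angus and KC (difference 0.22, standard error 0.08, edgeR adjusted p = 0.484).

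Blocking by sire was the only setting with adjusted calls, and these rested on low-RFI steer 1. In the 12 steers the fit with sire as a block has 6 residual degrees of freedom and compares that steer with the 4 high-RFI steers of sire A. It gave 5 miRNAs at an adjusted p under 0.05, miR-100 (adjusted p = 0.00654), miR-99b (0.00216), miR-10172-3p (0.0406), miR-99a-5p (0.0473) and miR-125b (0.0473). miR-99a-5p, miR-99b and miR-100 share a seed, and copies of miR-125b lie near miR-99 or miR-100 in mammalian genomes. The members other than miR-100 are named because of this fit, after their values were seen.
bta-miR-100: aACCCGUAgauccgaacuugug
bta-miR-99a-5p: aACCCGUAgauccgaucuugu
bta-miR-99b: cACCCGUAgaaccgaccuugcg
bta-miR-125b: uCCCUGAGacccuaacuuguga
The capitals again mark the seed. miR-100 was at 1583 CPM in low-RFI steer 1 and at 4402 to 8438 CPM in the other 11 steers. In the same steer miR-99a-5p was at 385 CPM against 782 to 1418 CPM in the others, miR-99b at 669 against 1802 to 3462 CPM, and miR-125b at 761 against 1213 to 2012 CPM. miR-10172-3p went the other way, at 131 CPM against 38.6 to 106 CPM. This steer was thus outside the range of all others for each of the 5. Without it the log2 fold changes, in the order just given, were -0.02, -0.04, 0.00, 0.06 and -0.22, and with sire as a block in all 20 Charolais steers, which adds the 8 without an RFI group, none of the 5 had an adjusted p below 0.680, at log2 fold changes of -1.12, -0.84, -0.81, -0.50 and 0.66.

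**Figure D5:**
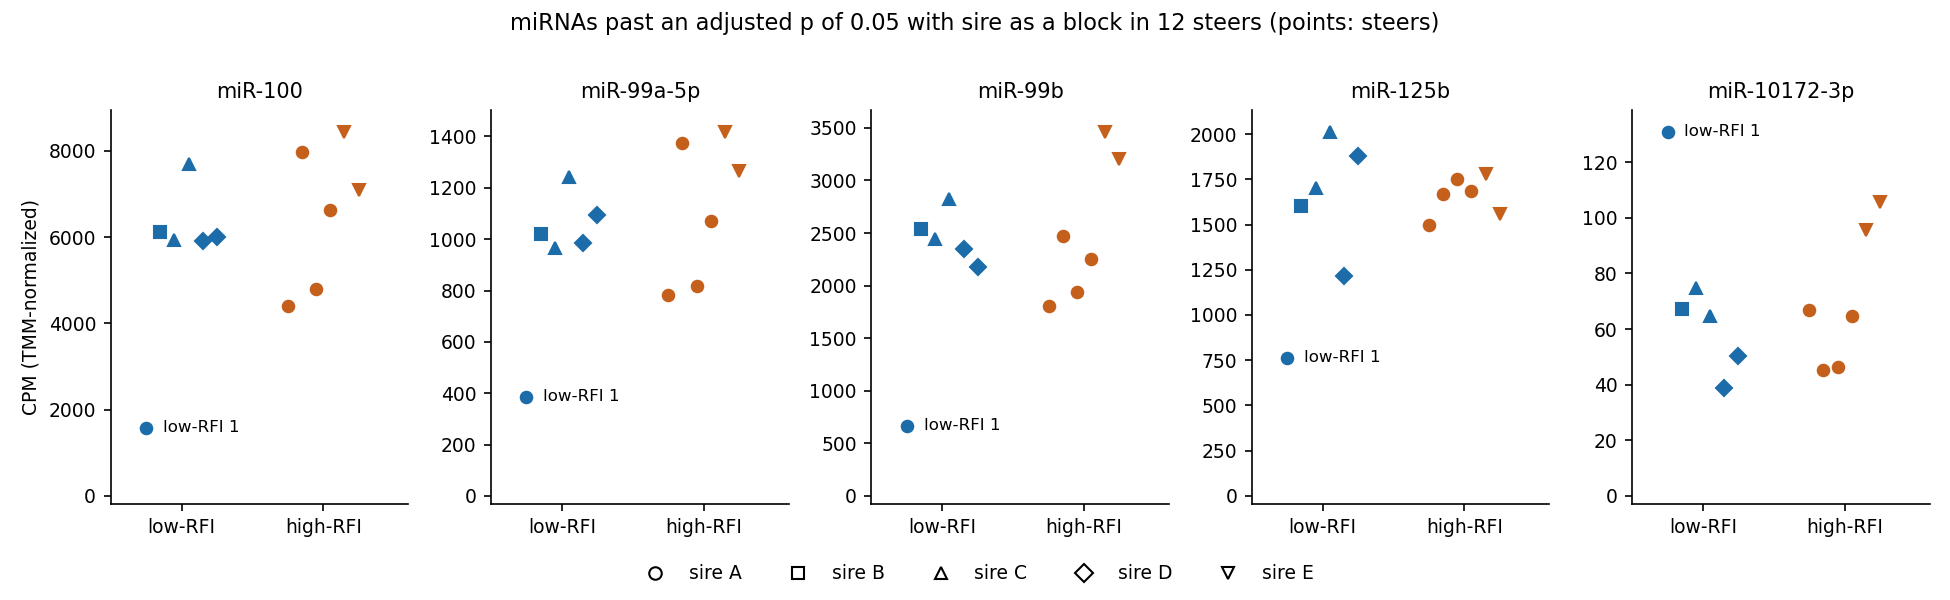
Normalized level (CPM, linear axes from 0) of the 5 miRNAs with an adjusted p under 0.05 when sire was a block in the 12 steers, with symbols for sires. Low-RFI steer 1, of sire A, is the lowest of all steers for miR-100 (1583 CPM), miR-99a-5p, miR-99b and miR-125b and the highest for miR-10172-3p, and the remaining low-RFI and high-RFI steers overlap.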

How the data were processed

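Small RNA libraries of Charolais liver (TruSeq Small RNA kit, 1 per steer) were processed by the authors, who trimmed reads with cutadapt (version 1.16), kept them by length, removed other small RNAs, and counted known miRNAs of miRBase with miRDeep2 and Bowtie (version 1.1.1) on genome build UMD3.1. The deposited values are raw read counts per pair of mature miRNA and precursor, without normalization. Here counts were averaged over precursors, as the authors did, and rounded. Those reaching 1 CPM in 6 or more of the 12 steers were normalized by TMM and tested with the quasi-likelihood F test of edgeR (version 4.0.16, R version 4.3.3). The study's likelihood ratio test, DESeq2 (version 1.42.0) and other settings were run as alternatives. A miRNA is called where its fold change exceeds 1.5 and its p-value before adjustment is under 0.05. The Benjamini-Hochberg adjustment ran over every tested miRNA. Permutation tests used log2 CPM, enumerated every relabeling of the steers and are two-sided. They treat the steers as independent, although several share a sire. Neither they nor the fits account for the choice of steers by consistent miRNA expression. Read totals of 2237959 to 5670714 per steer set the precision.

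Named miRNAs are the 20 most abundant, the hepatocyte list, the called, the 10 smallest p-values, the qPCR miRNAs, the most abundant and smallest-p member of each list and the 5 smallest p-values of the breed contrast. Others (second arms, cluster partners and the miRNAs of the sire fit) were chosen after their values were seen. Members and lists were chosen with earlier results of these data known. Near-identical means that 18 or more bases of both mature sequences match, allowing 1 mismatch and a shift of up to 2 bases. Neighbouring miRNAs and host genes are from RefSeq (ARS-UCD2.0), in which all 79 named miRNAs were matched. Predicted miRNAs were not analysed here.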

Additional observations from a re-analysis of the deposited data

Results flagged for a closer look

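In 12 of 160 groups of 6 steers examined for the named results (7.5%), the highest or lowest steer lay far from the other 5. Chance does this in about 1 in 20 groups. The causes were not tested.

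Low-RFI steer 1 accounted for 4 of them. It had 33370 CPM of let-7f against 23860 to 26700 CPM in the other low-RFI steers, 1583 CPM of miR-100 against 5899 to 7684, 3.56 CPM of miR-2484 against 7.46 to 9.16, and 44.3 CPM of miR-33b against 29.7 to 32.2. In low-RFI steer 6, miR-449a was at 12.6 CPM against 0.623 to 2.13 CPM in the others.

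In the high-RFI group, steer 5 had 36.4 CPM of miR-144 against 14.3 to 22.4 and 10830 CPM of miR-486 against 4602 to 5906, both erythroid miRNAs. Steer 6 had 9834 CPM of miR-127 against 3947 to 5195, and 589 CPM of miR-107 against 645 to 661. Steer 3 had 4419 CPM of miR-142-5p against 3064 to 3558 and 1687 CPM of miR-199a-3p against 1084 to 1291. Steer 2 had 8607 CPM of miR-215 against 10300 to 11280.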

How the results depend on the processing

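The count of 9 called miRNAs became 14 with no filter on low counts, 2 with at least 10 counts in every steer, 42 with sire as a block in 12 steers and 15 with sire as a block in 20 steers. It was 6 to 10 in the other settings that kept all 12 steers or added others, 7 to 12 with each steer left out, and 13 in 9 steers (without low-RFI steer 1 and the sons of sire E, chosen after seeing the data). At an unadjusted p under 0.05 the count of 20 became 11 with at least 10 counts in every steer and 46 with the sire block in 12 steers, and 15 to 24 with each steer left out. Adjusted calls were 5 with that block and 0 in every other setting. miR-133a turned from 0.64 to -0.041 (log2 fold change) with that block. The difference in totals (low-RFI minus high-RFI) was -1165120 to -504531 counts, and in the share of the 10 most abundant miRNAs -0.874 to -0.389 percentage points, with each steer left out. Each passed p = 0.05 in 1 such case (-1165120 counts, exact permutation p = 0.0325, without high-RFI steer 1, and -0.874, exact permutation p = 0.0260, without low-RFI steer 2). Apart from the lost or added calls, the cause of these changes was not tested. No paired analysis was possible because low-RFI and high-RFI steers are different animals and the labels pair none of them. Depth limits the miRNAs near 1 CPM, where most called miRNAs lie.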

Other observations

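The 8 Charolais steers without an RFI group belong to no comparison above. Their levels, scaled together with the other 12, were 199400 to 265500 CPM for miR-192, 1639 to 2191 CPM for miR-194, 22.7 to 49.1 CPM for miR-133a and 1.15 to 2.47 CPM for miR-365-5p.

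Of these 8, steer 7, a son of sire D, stood outside the other 19 Charolais steers for several of the most abundant miRNAs. It had 394600 CPM of miR-143 against 133500 to 189500, 226200 CPM of miR-30a-5p against 72400 to 132700, and 105800 CPM of miR-26a against 40530 to 65160. miR-122 was at 18630 CPM against 6125 to 12350, and miR-191 at 23510 CPM against 7894 to 13610. miR-100 was at 19970 CPM against 1580 to 7970 and miR-99b at 6539 CPM against 668 to 3275, the direction opposite to that of low-RFI steer 1. miR-192, at 249500 CPM, and miR-194, at 2072 CPM, were within the range of the others. This steer was the highest of 20 in 73 of the 373 tested miRNAs and the lowest in 33. All of these levels and ranks depend on the scaling between libraries, whose part was not tested. It is the steer at 49.1 CPM of miR-133a, next to 42.9 CPM in the following one, and it enters the fits that use all 20 steers.

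Ungrouped steer 1, a son of sire A, had 3004 CPM of miR-100, 643 CPM of miR-99a-5p, 1225 CPM of miR-99b and 10940 CPM of miR-122, which puts it below the other 7 ungrouped steers for the first 3 and above 6 of them for miR-122.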
